A study of Mus musculus with 20 samples.

Results

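The spread between animals was compared between the ovaries of the unselected Dummerstorf control line (ctrl) and those of the high-fertility line FL1. All 20 samples of the series entered the comparison, 10 of ctrl and 10 of FL1. Each sample was 1 library from the ovaries of 1 female of 77 days, and each line gave 5 females in estrus and 5 in diestrus. The genotype label was WT for ctrl and FL1 for the selected line, and the sample titles gave the same groups, while the source label named the FL1 line for all 20 samples, ctrl included. For every gene with 10 or more counts in every library, the deviation of each library from the mean of its own group of 5 was taken on the log2 scale. The variance of these deviations, with the stages pooled, was then compared between the lines over 11337 genes. Both lines descend from the same outbred stock. The ctrl line was kept without selection under rotational mating, and FL1 was selected over many generations for large and heavy litters with fewer mating pairs per generation. Neither line is inbred, so the females of a group were not genetically identical.

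The mouse ovary holds follicles of all stages beside corpora lutea, the glands that form from ovulated follicles and make progesterone. Granulosa cells surround the oocyte and convert androgens from the theca into estrogen, and luteal cells take up and make cholesterol for steroid synthesis. Ovulation falls around estrus, and diestrus is the phase in which corpora lutea are active, so animals sampled at the same stage can still differ in the makeup of the ovary and, in an outbred line, in the alleles they carry.

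Depth was between 5991223 and 10352718 counts per library, with a median of 7020783 in ctrl and 6787039.5 in FL1. Values are given as CPM, the counts scaled to a common library size (log2 CPM is their log2 value). The markers of the labelled tissue were present in all groups: summed over 18 granulosa markers the level lay between 3174 and 8697 CPM, over 22 oocyte markers between 320.3 and 1169.6 CPM, and over 16 luteal markers between 20021 and 65102 CPM. The ctrl estrus library 5 stood apart from the others: it had the lowest granulosa sum of all libraries, 3174 CPM against at least 5049.6 CPM elsewhere, and in estrus the highest luteal sum, 50411 CPM. The distances and the medians of the gene lists are given with and without it. In whole ovaries, fewer cells of a type cannot be told apart from less RNA per cell.

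Ctrl libraries lay farther from the centre of their group than FL1 libraries. The distance was the root mean square, over the 11337 genes, of a library's deviation from its group in log2 CPM. In ctrl estrus it was 0.331, 0.311, 0.352, 0.297 and 0.529 for libraries 1 to 5, and in FL1 estrus 0.331, 0.279, 0.293, 0.237 and 0.279. In ctrl diestrus it was 0.352, 0.282, 0.321, 0.316 and 0.354, and in FL1 diestrus 0.283, 0.271, 0.255, 0.280 and 0.274. Library 5 of ctrl estrus was far above all others, the groups overlapped in estrus, and in diestrus only the lowest ctrl library lay below the highest FL1 library. The mean was 0.345 ± 0.0692 in ctrl and 0.278 ± 0.0243 in FL1 (SD, n = 10), a difference of 0.0663 (exact permutation of line within stage, two-sided, p = 0.000819). The smallest p this test can give is 3.15e-05. The distances of a group are taken from 1 shared mean, so they are not independent, and a library far off raises those of the others. With the group median as the centre the difference was 0.0689 (exact permutation of line within stage, two-sided, p = 0.00976).

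**Figure D1:**
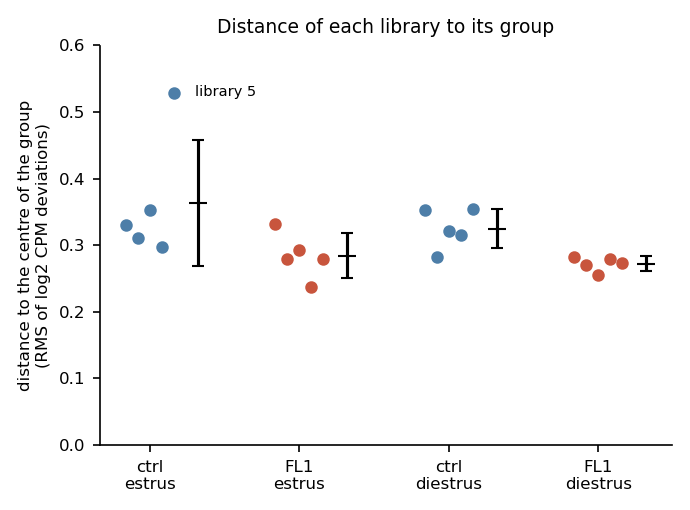
Distance of each library to the centre of its group of 5 (root mean square of log2 CPM deviations over 11337 genes), with blue points for ctrl, red points for FL1 and black bars for mean ± SD. The FL1 libraries sat between 0.237 and 0.331 and the ctrl libraries between 0.282 and 0.529, with ctrl estrus library 5 highest.

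Without ctrl estrus library 5, the difference between the lines was 0.0366, with ctrl at 0.316 ± 0.0254 (SD, n = 9; exact permutation, two-sided, p = 0.00734). Within diestrus the difference was 0.0526 (exact permutation, two-sided, p = 0.0159, adjusted over the 2 stages 0.0317). Within estrus it was 0.0799 (exact permutation, two-sided, p = 0.0556), and 0.0205 without library 5 (exact permutation, two-sided, p = 0.333). The dependence of the difference on stage, estrus minus diestrus, was 0.0273 with all libraries and -0.0322 without library 5 (exact permutation of stage within line, two-sided, p = 0.728 and p = 0.167). The distance between pairs of libraries of the same group was 0.517 and 0.460 on average in ctrl estrus and ctrl diestrus, and 0.401 and 0.385 in FL1 estrus and FL1 diestrus, over 10 pairs in each group.

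The larger spread of ctrl was seen across the genes and not in a few of them. Of the 11337 genes, 68.3% had the larger variance in ctrl (jackknife SE over libraries 10.8). The median SD within groups was 0.264 log2 units in ctrl and 0.214 in FL1. The median of the log2 variance ratio, ctrl over FL1, was 0.58 (jackknife SE 0.37), which is a 1.49-fold variance, and its quartiles were -0.24 and 1.37. Without ctrl estrus library 5 the median was 0.23, and 58.0% of genes had the larger variance in ctrl. A variance ratio above 4-fold was found in 1388 genes in the direction of ctrl and in 173 genes in the direction of FL1. Genes are not independent of each other, so these shares are descriptions and the test is that of the distances.

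The difference was larger among abundant genes. In 5 classes of equal size from low to high mean expression, the median log2 variance ratio was 0.33, 0.49, 0.56, 0.65 and 0.90, and the share with the larger variance in ctrl went from 61.2% to 76.1%. Counting error was nearly equal in the lines (median log2 ratio of the counting variance 0.0086). It made up 15.5% of the variance of the median gene in ctrl and 22.1% in FL1, and after it was subtracted the median ratio was 0.73. The biological coefficient of variation that edgeR fitted to the counts was 21.3% in ctrl and 15.6% in FL1. On every chromosome the median ratio was above 0, from 0.42 on X to 0.76 on chromosome 3. All values of this paragraph were taken with all 20 libraries and were not repeated without ctrl estrus library 5.

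**Figure D2:**
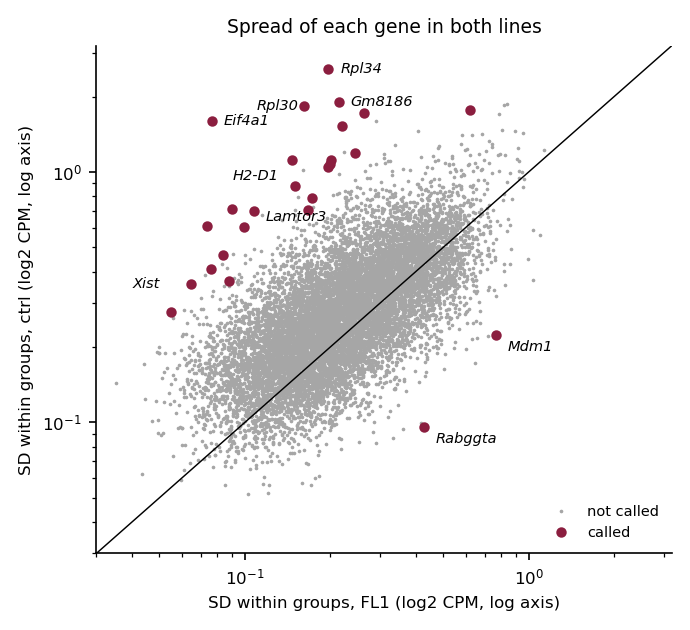
SD within groups of each of 11337 genes in FL1 (x axis) and ctrl (y axis), in log2 CPM with log axes and the line of equal SD. Red points are the 26 genes called by limma, of which 24 lie above the line and 2, Rabggta and Mdm1, below it, and 68.3% of all points lie above it.

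With p-values adjusted after Benjamini and Hochberg and a threshold of 0.05, limma on the absolute deviations called 24 genes more variable in ctrl (0.212% of the genes tested) and 2 more variable in FL1 (0.0176%). At an unadjusted p under 0.05, 1320 genes were more variable in ctrl and 211 in FL1. The number of calls depended on the test: an F test of the variances called 26 genes, 18 of them shared with limma, while deviations from the group median and squared deviations called 0 genes each (300 and 856 genes in the direction of ctrl, and 21 and 136 in that of FL1, at an unadjusted p under 0.05). Leaving out 1 library at a time gave 6 to 173 calls in the direction of ctrl, lowest without FL1 diestrus library 5 and highest without ctrl estrus library 4. All 24 genes called in the direction of ctrl kept a log2 variance ratio above 3 over the same genes without ctrl estrus library 5. They were picked on these same values, so this is no test of the calls. Leaving out 1 library at a time was followed for some called genes. Eif4a1, Rpl34, Rpl30, Gm8186, Fam199x and Col6a5 were called in all 20 runs, Ubb in 19 and Rpl26 in 16. Rpp25l was called in 12, H2-K1 and H2-D1 in 11 each, Lamtor3 in 10, Rabggta and AA465934 in 9 each, and Mdm1 in 8. For level between the lines, edgeR called 9 of the 26 genes (34.6%), beside 6.42% of all genes. Of these 9, 5 were higher in FL1, as were 3.15% of all genes, and 4 were lower in FL1, as were 3.27% of all genes.

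The 3 largest ratios were those of Eif4a1, Rpl34 and Rpl30. Eif4a1, the RNA helicase of the translation initiation complex, had 62.9, 7.48, 152, 149.8 and 115 CPM in ctrl estrus and 66.9, 59.1, 7.55, 60.9 and 67.2 CPM in ctrl diestrus. In FL1 it had 151, 154, 145, 132 and 146 CPM in estrus and 137, 129, 135, 122 and 128 CPM in diestrus. Each ctrl group held 1 library more than 7-fold below the next, and the FL1 libraries were within 1.26-fold of each other. The SD within groups was 1.60 log2 units in ctrl and 0.0763 in FL1 (log2 variance ratio 8.77, jackknife SE 1.58, limma adjusted p = 0.000555).

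Rpl34, a protein of the large ribosomal subunit, fell into widely separated levels in ctrl. It had 10.3, 11.97, 46.2, 12.7 and 595 CPM in ctrl estrus and 11.5, 10.6, 254, 676 and 29.0 CPM in ctrl diestrus. The FL1 libraries had 936, 792, 587, 700.2 and 727 CPM in estrus and 658, 641, 532, 568 and 570.0 CPM in diestrus. Library 5 of ctrl estrus and library 4 of ctrl diestrus reached the range of FL1, library 3 of ctrl diestrus lay between, and the other 7 ctrl libraries were at 46.2 CPM or less. Its log2 variance ratio was 7.43 (jackknife SE 1.23, limma adjusted p = 3.12e-09), with an SD of 2.58 log2 units in ctrl and 0.197 in FL1.

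Rpl30 and Rpl26, also proteins of the large ribosomal subunit, differed in which animals stood apart. Rpl30 had 77.7, 73.3, 85.8, 5.60 and 1.77 CPM in ctrl estrus and 104, 72.3, 39.6, 81.2 and 83.8 CPM in ctrl diestrus, and between 65.8 and 99.0 CPM in FL1. Only libraries 4 and 5 of ctrl estrus and library 3 of ctrl diestrus were below the FL1 range. This gave a log2 variance ratio of 6.99 (jackknife SE 1.28; limma adjusted p = 0.000555). Rpl26 had 248, 25.6, 201, 473 and 237 CPM in ctrl estrus, 323, 20.7, 15.7, 16.6 and 22.03 CPM in ctrl diestrus, and between 9.56 and 17.9 CPM in FL1. Here the ctrl libraries that stood apart were above FL1, 4 of 5 in estrus and 1 of 5 in diestrus. With an SD of 1.72 log2 units in ctrl and 0.263 in FL1, the log2 variance ratio was 5.43 (jackknife SE 1.31, limma adjusted p = 0.0233).

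**Figure D3:**
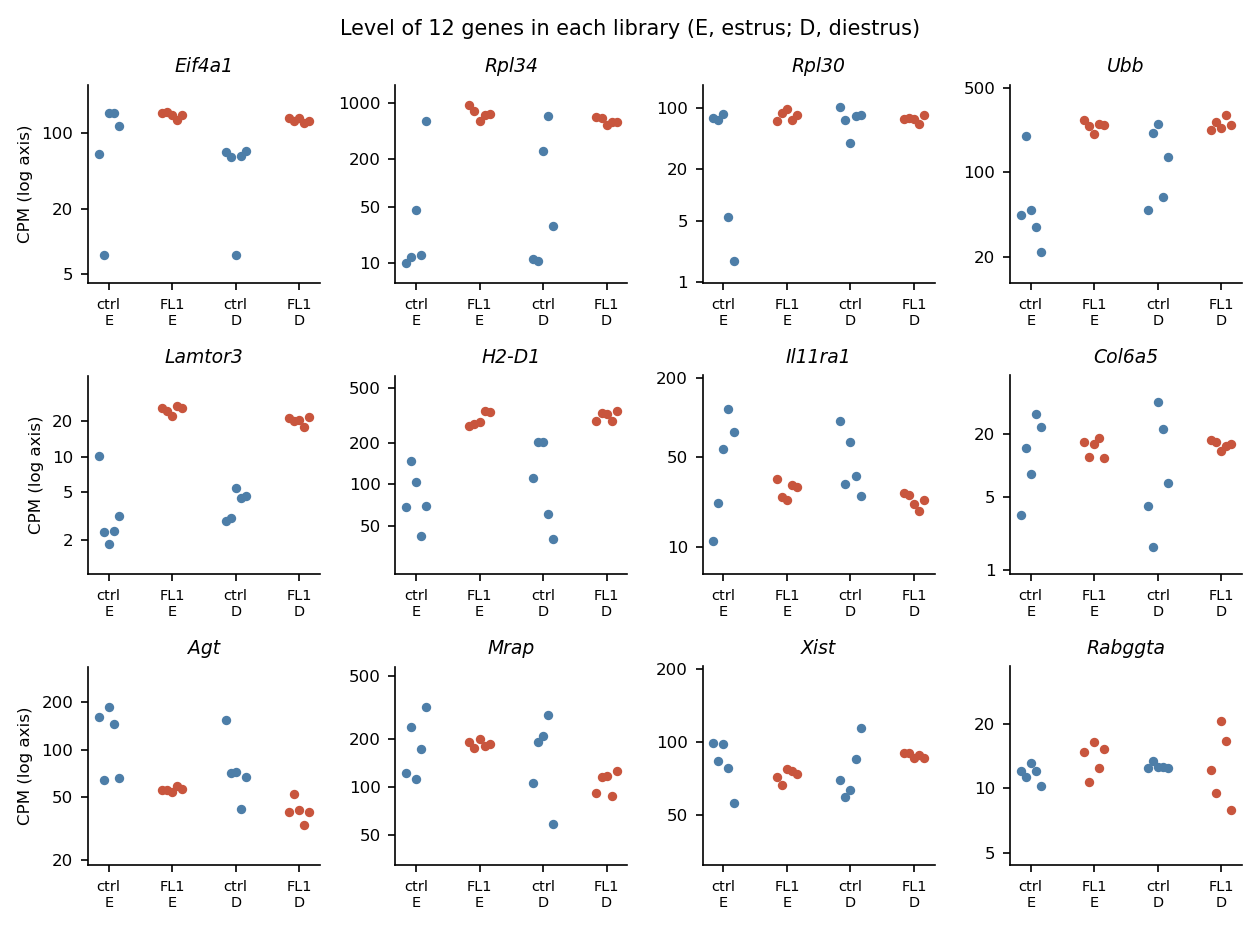
Level of 12 called genes in each library in CPM (log axis), with blue points for ctrl, red points for FL1, E for estrus and D for diestrus, and libraries 1 to 5 from left to right within a group. In 11 genes the ctrl points spread more widely than the FL1 points, as in Eif4a1 with 7.48 to 152 CPM in ctrl and 122 to 154 CPM in FL1, and in Rabggta the FL1 points spread more widely.

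Ubb and Lamtor3 were also among the called genes. Ubb, 1 of the genes that encode ubiquitin, had 43.9, 201, 48.7, 35.2 and 21.7 CPM in ctrl estrus, 49.2, 213, 250.5, 62.7 and 134 CPM in ctrl diestrus, and between 209.8 and 298 CPM in FL1. Libraries 2 and 3 of ctrl diestrus reached the FL1 range, library 2 of ctrl estrus came near it, and the other ctrl libraries were at 134 CPM or less. The SD within groups was 1.12 log2 units in ctrl and 0.146 in FL1 (log2 variance ratio 5.88, jackknife SE 1.19, limma adjusted p = 0.0103). Lamtor3, a scaffold protein of the Ragulator complex on lysosomes, had 10.1, 2.33, 1.85, 2.37 and 3.18 CPM in ctrl estrus, 2.87, 3.04, 5.44, 4.48 and 4.65 CPM in ctrl diestrus, and between 17.7 and 26.7 CPM in FL1. All ctrl libraries were below all FL1 libraries, and library 1 of ctrl estrus stood above the rest of its group. Counts in ctrl were as low as 14, near the filter of 10, and the ratio was not corrected for counting error. Its log2 variance ratio was 5.402 (jackknife SE 2.22, limma adjusted p = 0.0297), with an SD of 0.699 log2 units in ctrl and 0.108 in FL1.

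Of the genes of antigen presentation, the classical class I heavy chains H2-K1 and H2-D1 were called. H2-D1 had 68.7, 149, 104, 42.1 and 69.8 CPM in ctrl estrus and 111, 202, 204, 61.3 and 40.2 CPM in ctrl diestrus. In FL1 it had 265.3, 272, 282, 343 and 338 CPM in estrus and 287, 331, 324, 288 and 342 CPM in diestrus. The groups of the lines did not overlap in either stage, and the ctrl libraries were spread over a 5.07-fold range. This gave a log2 variance ratio of 5.08 (jackknife SE 0.74; limma adjusted p = 0.0336). H2-K1 lay between 96.9 and 387 CPM in ctrl and between 308 and 397 CPM in FL1. With an SD of 0.605 log2 units in ctrl and 0.0997 in FL1, the log2 variance ratio was 5.20 (jackknife SE 1.17, limma adjusted p = 0.0297). Class I genes are polymorphic between mouse strains and near-identical among themselves, so their counts on the reference genes are uncertain.

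Mrap and Agt, each with a known role in hormone action, were called as well. Mrap, the accessory protein that brings the ACTH receptor to the cell surface, had 121, 239, 112, 172 and 316 CPM in ctrl estrus and 192, 175, 201, 179.5 and 186 CPM in FL1 estrus. In diestrus it had 106, 190.5, 209.8, 284 and 58.0 CPM in ctrl and 91.6, 116, 116, 87.4 and 125 CPM in FL1. The FL1 libraries of estrus lay within the ctrl range, and in diestrus the ctrl libraries reached from below to above all FL1 libraries. The SD within groups was 0.785 log2 units in ctrl and 0.172 in FL1 (log2 variance ratio 4.37, jackknife SE 1.08, limma adjusted p = 0.0477).

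Agt, the precursor of angiotensin, had 160.3, 64.2, 186, 144 and 65.8 CPM in ctrl estrus and 55.6, 55.9, 53.6, 58.7 and 56.8 CPM in FL1 estrus. In diestrus it had 154, 71.2, 71.9, 42.0 and 66.9 CPM in ctrl and 40.1, 52.7, 41.7, 33.5 and 40.5 CPM in FL1. The ctrl libraries of estrus split into 3 high and 2 low ones, and library 1 of ctrl diestrus was high. Its log2 variance ratio was 4.16 (jackknife SE 1.81, limma adjusted p = 0.0297), with an SD of 0.704 log2 units in ctrl and 0.167 in FL1. Col6a5, a chain of collagen VI, lay between 1.66 and 39.7 CPM in ctrl and between 11.8 and 18.3 CPM in FL1. This gave a log2 variance ratio of 5.58 (jackknife SE 0.90; limma adjusted p = 0.00684).

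Of the called genes, 3 lie on the X chromosome. Xist, the long noncoding RNA that silences 1 X chromosome in female cells (chrX:103460366-103483254, GRCm38), had 99.0, 83.4, 98.0, 78.3 and 55.9 CPM in ctrl estrus and 69.7, 59.1, 63.4, 85.0 and 114 CPM in ctrl diestrus. In FL1 it had 71.8, 66.6, 77.5, 75.9 and 74.0 CPM in estrus and 89.8, 89.96, 85.5, 88.2 and 85.7 CPM in diestrus. The mean level was nearly the same in both lines (log2 change FL1 over ctrl -0.01, edgeR adjusted p = 0.984), and in each stage the ctrl libraries reached below and above all FL1 libraries. With an SD of 0.358 log2 units in ctrl and 0.0647 in FL1, the log2 variance ratio was 4.94 (jackknife SE 1.59, limma adjusted p = 0.0356). Tsix, the antisense gene of Xist, overlaps it, and reads of the pair cannot be told apart without the strand. The other two were Nhsl2, with a log2 variance ratio of 4.95 (limma adjusted p = 0.0299), and Fam199x, with 6.10 (limma adjusted p = 0.007). Over the 380 genes compared on X the median ratio was 0.42, below that of all genes.

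Called genes were in part neighbours: 10 of the 26 lay within 1 Mb of another. The same share over all genes tested was not computed, so this count is no measure of clustering. Rpp25l, a subunit of RNase P and MRP (chr4:41712033-41713534, minus strand), lies inside the span of Il11ra1, the receptor chain for interleukin 11 (chr4:41699989-41769474, plus strand). Il11ra1 had 11.2, 21.9, 57.5, 117 and 76.9 CPM in ctrl estrus, 93.0, 30.5, 64.7, 35.2 and 24.8 CPM in ctrl diestrus, and between 19.1 and 33.7 CPM in FL1. The SD within groups was 1.12 log2 units in ctrl and 0.201 in FL1 (log2 variance ratio 4.95, jackknife SE 0.91, limma adjusted p = 0.0297). Rpp25l lay between 12.3 and 71.3 CPM in ctrl and between 34.0 and 42.8 CPM in FL1, lowest in the same ctrl library as Il11ra1. Its log2 variance ratio was 5.97 (jackknife SE 2.55, limma adjusted p = 0.0297), with an SD of 0.713 log2 units in ctrl and 0.0902 in FL1. Because the strand setting of the counting is not given, reads of these overlapping genes cannot be told apart.

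In the direction of FL1, Rabggta and Mdm1 were called. Rabggta, a subunit of the enzyme that attaches lipid anchors to Rab proteins, had 14.7, 10.8, 16.5, 12.5 and 15.2 CPM in FL1 estrus and 12.2, 9.53, 20.5, 16.7 and 7.90 CPM in FL1 diestrus. In ctrl it had 12.02, 11.3, 13.1, 12.1 and 10.3 CPM in estrus and 12.4, 13.4, 12.5, 12.6 and 12.4 CPM in diestrus, all within a 1.31-fold range. This gave a log2 variance ratio of -4.32 (jackknife SE 1.53; limma adjusted p = 0.0477). Mdm1, a centriole protein, had 5.11, 1.97, 2.23, 5.26 and 5.01 CPM in FL1 estrus and 1.45, 4.76, 5.21, 5.56 and 1.68 CPM in FL1 diestrus, in which 4 libraries were below 2.3 CPM and 6 above 4.7 CPM. In ctrl it lay between 2.38 and 4.81 CPM. With an SD of 0.223 log2 units in ctrl and 0.767 in FL1, the log2 variance ratio was -3.56 (jackknife SE 1.27, limma adjusted p = 0.0477). The F test of the variances called neither gene (adjusted p = 0.092 for Rabggta and 0.171 for Mdm1). Their ratios were not corrected for counting error, which takes a larger share of the variance in genes of low level. The small SD of these genes in ctrl is therefore no measure of the spread between animals alone. The next genes in this direction, Umad1, Rnf103 and Bpgm, were not called (limma adjusted p = 0.0516, 0.0989 and 0.1001).

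Of the 26 called genes, 13 (50%) share their 3′ end with another gene, against 11.8% of the genes tested. To count as a copy, another gene had to contain in its transcripts 50 or more of the possible 31-nt stretches from the final 300 nt of the called gene. Over all genes compared, the median log2 variance ratio was 0.58 among those with a copy and 0.58 among those without. The 6 sequences are 60 bases of a gene and a copy in the coding part near the 3′ end. They come from GENCODE M21 transcripts (GRCm38), 5′ to 3′, with the bases that differ between the members of a pair in capitals. Each window was the stretch nearest the stop codon, within an exon, that had at most 3 differences from the copy. Its likeness was therefore set by this choice and does not measure that of the whole 3′ end. The window ended 51 bases before the end of the stop codon in Snrpg, 3 before it in Rpsa and 0 in Rpl34. Snrpg, a core protein of the spliceosome (chr6:86376560-86376619, plus strand), and the processed pseudogene Gm8186 (chr17:26099042-26099101, minus strand) do not differ there. Rpsa, a protein of the small ribosomal subunit (chr9:120131432-120131491, plus strand), and its pseudogene Rpsa-ps10 (chr3:150072658-150072717, minus strand) differ at 1 base. Rpl34 (chr3:130726875-130726934, minus strand) and its pseudogene Gm10086 (chr5:108517473-108517532, plus strand) also differ at 1 base.
Snrpg: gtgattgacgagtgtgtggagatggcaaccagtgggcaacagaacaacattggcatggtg
Gm8186: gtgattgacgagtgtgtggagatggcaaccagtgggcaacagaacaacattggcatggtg
Rpsa: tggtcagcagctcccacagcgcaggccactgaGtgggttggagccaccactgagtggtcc
Rpsa-ps10: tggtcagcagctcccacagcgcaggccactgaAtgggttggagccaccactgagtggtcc
Rpl34: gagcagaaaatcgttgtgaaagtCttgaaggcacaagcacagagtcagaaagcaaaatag
Gm10086: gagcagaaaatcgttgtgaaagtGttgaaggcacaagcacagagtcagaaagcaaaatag

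The share of counts that fell on Gm8186 and on Snrpg differed between ctrl libraries. Gm8186 had 2.70, 55.7, 9.26, 50.7 and 70.5 CPM in ctrl estrus and Snrpg had 64.8, 40.6, 62.7, 55.5 and 76.4 CPM in the same libraries. In ctrl diestrus Gm8186 had 5.54, 83.6, 48.2, 5.98 and 43.1 CPM and Snrpg 101, 24.8, 53.6, 103 and 61.0 CPM. Library 5 of ctrl estrus was the highest of its group in both genes, and the sum lay between 67.5 and 147 CPM in ctrl and between 67.2 and 128 CPM in FL1. Of the sum of both genes, Gm8186 held between 4.00% and 77.1% in ctrl, and between 82.9% and 89.4% in all 10 FL1 libraries. In 4 ctrl libraries the share was under 13%, in 5 between 41.4% and 57.9%, and in 1 it was 77.1%. The log2 variance ratio was 6.30 for Gm8186 alone (SE 1.46, limma adjusted p = 1.27e-05) and 1.32 for the sum (limma adjusted p = 0.798).

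The shares of Rpsa and Rpsa-ps10 fell into steps. Rpsa had 5.67, 59.5, 31.6, 44.2 and 31.8 CPM in ctrl estrus and Rpsa-ps10 had 79.3, 1.66, 39.8, 44.7 and 40.7 CPM. In ctrl diestrus Rpsa had 81.7, 60.5, 28.6, 30.04 and 29.2 CPM and Rpsa-ps10 0.0955, 0.69, 33.8, 46.8 and 42.5 CPM. The share of Rpsa in the sum was 6.68% in 1 ctrl library, between 39.1% and 49.7% in 6, and between 97.3% and 99.9% in 3, while it was at least 98.2% in all 10 FL1 libraries. Rpsa alone had a log2 variance ratio of 4.82 (SE 1.79, limma adjusted p = 0.0497), and the sum of Rpsa and its 19 copies had -0.13 (limma adjusted p = 0.991).

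**Figure D4:**
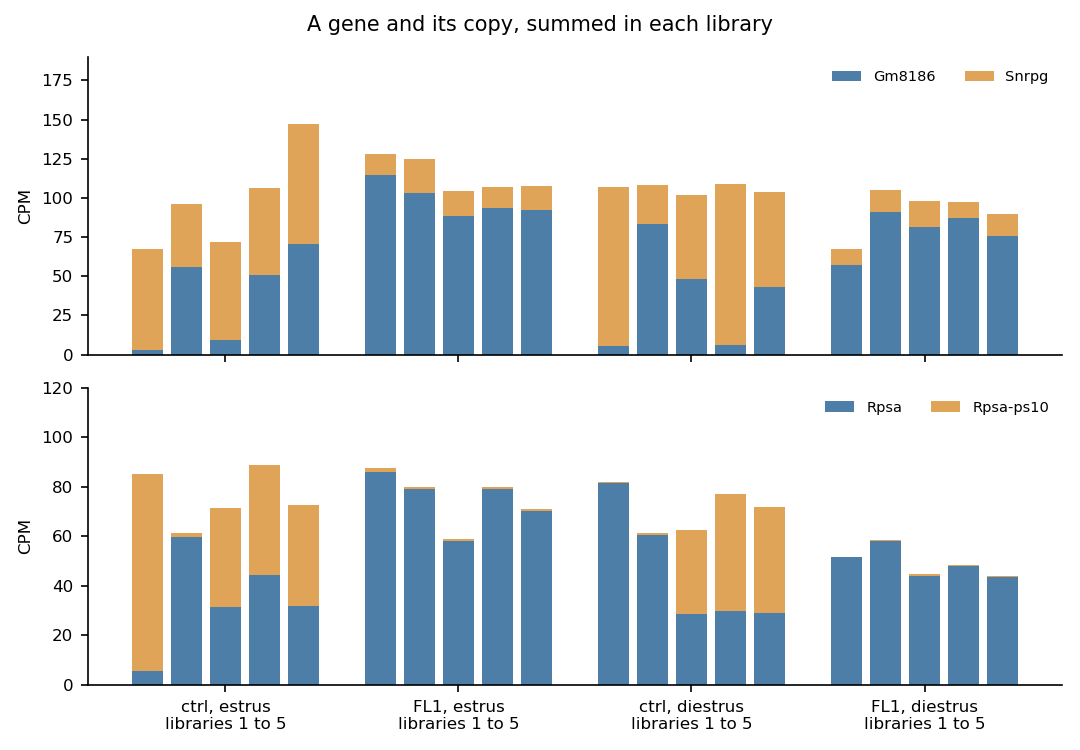
Level of a gene and its copy stacked in each library, in CPM, for Gm8186 with Snrpg (top) and Rpsa with Rpsa-ps10 (bottom). The share of Rpsa in the sum was between 6.68% and 99.9% in ctrl and at least 98.2% in FL1, while the sums of Rpsa and Rpsa-ps10 had nearly the same SD in the lines, 0.20 log2 units in ctrl and 0.19 in FL1.

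After the counts of all copies were added, 8 of the 13 genes were still called. For Eif4a1, Ubb, Lamtor3 and Il11ra1 the copies added almost no counts, so the sum could not differ from the gene alone. Morf4l1, H2-K1 and H2-D1 had ratios after summing of 4.16, 4.52 and 4.52 (limma adjusted p = 0.0979, 0.0615 and 0.0615). The sums of H2-K1 and H2-D1 held nearly the same counts (1144 to 6514 and 1144 to 6510), so they are not separate results. Rpl34 with its 8 copies lay between 16.7 and 682 CPM in ctrl and between 535 and 947 CPM in FL1 (log2 variance ratio 6.96, limma adjusted p = 6.87e-06). Rpl30 and its 13 copies had a ratio of 6.90. These sums cover annotated copies only, and reads that were not placed on any gene cannot be seen in the counts.

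Beyond the called genes, gene lists were described by their medians beside that of all genes, 0.58 with 68.3% in the direction of ctrl. No list was tested as a set, and members of the MHC list were the only ones called. Cholesterol synthesis and uptake had the largest median, 1.77, and all 21 members compared had the larger variance in ctrl, 7 of them at an unadjusted p under 0.05 (33.3%, beside 11.6% of all genes). Dhcr7, a late enzyme of the pathway, had 299, 379, 160.0, 145 and 591 CPM in ctrl estrus and 237, 188, 292, 241 and 254 CPM in FL1 estrus. Dhcr7 in diestrus had 217, 540.2, 852, 399 and 330.1 CPM in ctrl and 648, 355, 616, 525 and 582 CPM in FL1. In both stages the ctrl libraries reached below and above those of FL1 (log2 variance ratio 2.87, limma adjusted p = 0.125). Fdps, which makes farnesyl diphosphate, had a ratio of 2.98, and Pmvk, an enzyme of the mevalonate pathway, had 3.19. Summed over the 22 genes, the level lay between 2103 and 5897 CPM in ctrl estrus and 2318 and 3520.3 CPM in FL1 estrus, and between 3512 and 8056 CPM in ctrl diestrus and 5383 and 7583 CPM in FL1 diestrus. Without ctrl estrus library 5, 19 of 21 genes had the larger variance in ctrl, with a median of 1.36.

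Steroid synthesis and luteal genes, lists that share members, had medians of 1.52 and 1.46, with 10 of 12 and 11 of 14 members in the direction of ctrl. Without ctrl estrus library 5 the medians were 1.20 and 0.95. Scarb1, the receptor that takes up cholesterol from lipoproteins, had 917, 1830.4, 704, 796 and 2492 CPM in ctrl estrus and 1231, 2606, 3498, 2706 and 1662 CPM in ctrl diestrus. In FL1 it had 919, 681, 1176, 954 and 1090.1 CPM in estrus and 2130.3, 1723, 2659, 2113 and 2205 CPM in diestrus. The FL1 libraries lay within the ctrl range in diestrus and, but for 1 library at 681 CPM, in estrus (log2 variance ratio 2.84, limma adjusted p = 0.105). Cyp17a1, which makes androgens in the theca, had 987, 236, 167, 168 and 496 CPM in ctrl diestrus and 166, 292, 190.4, 198 and 143 CPM in FL1 diestrus, and in estrus all 10 libraries were at or below 38.2 CPM. Its ratio of 3.86 was just short of the threshold (limma adjusted p = 0.0572). Nr5a1, the transcription factor that drives steroidogenic genes, had a ratio of 2.57 (limma adjusted p = 0.273). Summed luteal markers had an SD of 0.457 log2 units in ctrl and 0.298 in FL1.

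The medians of granulosa and cell cycle genes moved with ctrl estrus library 5. All 15 granulosa markers compared had the larger variance in ctrl, with a median of 1.02, and without library 5 it was 12 of 15 with a median of 0.25. Gja1, the gap junction protein of granulosa cells, had 1299.7, 896, 1241, 979 and 354 CPM in ctrl estrus and 1614, 1306, 973, 1151 and 1125 CPM in FL1 estrus, so that library 5 was far below all others. Its log2 variance ratio was 2.87 with this library and 0.07 without it. Of 30 cell cycle genes, 19 had the larger variance in ctrl with all libraries (median 0.37) and 5 without library 5 (median -1.32), beside 58.0% and 0.23 for all genes without it. Mcm4, a subunit of the replicative helicase, had 17.7 CPM in library 5 and at least 43.1 CPM in every other library. For Mcm4 the ratio went from 3.41 to -1.26. Among lists with 5 or more genes compared, oocyte markers had the lowest median: 9 of 19 had the larger variance in ctrl, with a median of -0.01, and 4 of 19 without library 5, with a median of -0.39, a shift near that of all genes (0.58 to 0.23). Summed over 22 markers, the oocyte SD was 0.441 log2 units in ctrl and 0.420 in FL1.

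**Figure D5:**
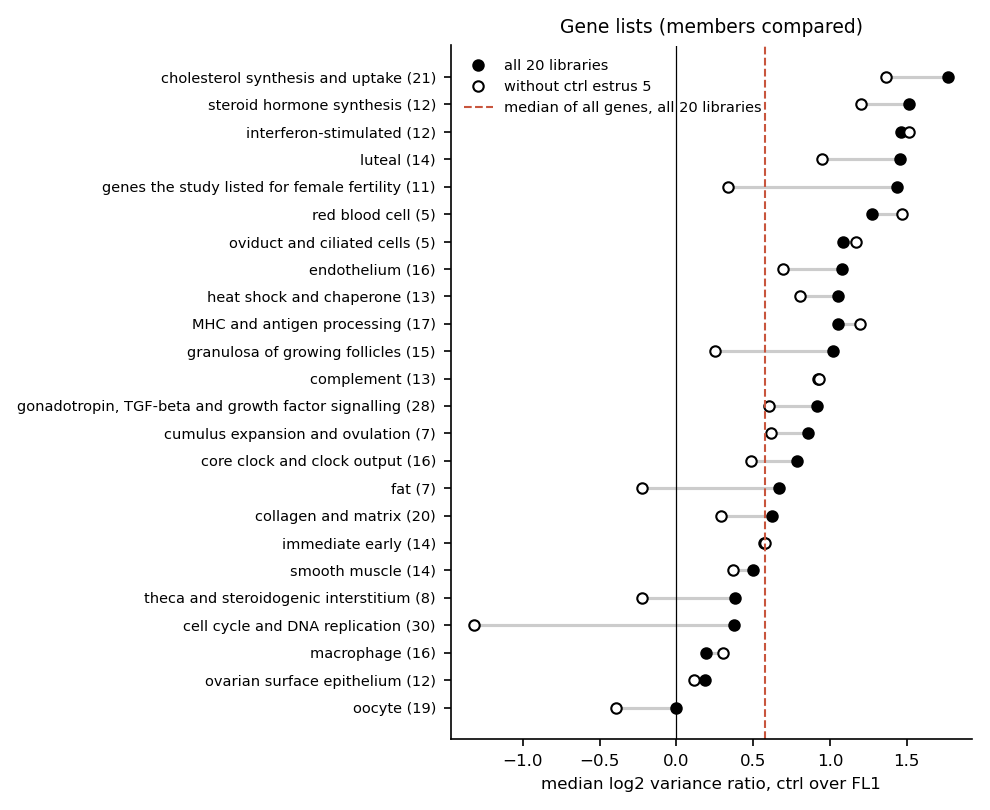
Median log2 variance ratio (ctrl over FL1) of the members of each gene list with 5 or more genes compared, with filled points for all 20 libraries, open points without ctrl estrus library 5, and a dashed line at the median of all genes, 0.58. Cholesterol synthesis was highest at 1.77, and the cell cycle list moved from 0.37 to -1.32 without that library.

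Of the other cells of the ovary, endothelial markers had a median above that of all genes and macrophage markers a median below it. The median was 1.08 for 16 endothelial markers, with 14 in the direction of ctrl, and 12 of 16 with a median of 0.69 without ctrl estrus library 5. Smooth muscle had 0.50, ovarian surface epithelium 0.18 and theca 0.38, and without library 5 these were 0.37, 0.12 and -0.23. Fat markers had 0.67 with and -0.22 without library 5, and genes of cumulus expansion and ovulation 0.86 and 0.62, over 7 genes each. Of 16 macrophage markers, 9 had the larger variance in ctrl (median 0.19, and 0.30 without library 5), and they went both ways: Lgals3, a galectin of macrophages, had 3.61, and Ctss, a lysosomal protease, had -2.52. Of 19 lymphocyte markers, 3 could be compared, of 12 neutrophil markers 0, and of 16 oviduct markers 5, since the others had fewer than 10 counts in at least 1 library. The summed lymphocyte markers were between 24.4 and 68.4 CPM, and the summed neutrophil markers between 2.62 and 13.5 CPM. Red blood cell genes, which vary with the blood left in the tissue, had a median of 1.27 over 5 genes (1.47 without library 5), and their sum had an SD of 0.812 log2 units in ctrl and 0.509 in FL1. Whether blood content bears on other genes was not tested.

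Interferon-stimulated and MHC genes had medians of 1.46 and 1.05, with 10 of 12 and 16 of 17 in the direction of ctrl. Without ctrl estrus library 5 the medians were 1.51 and 1.20. By stage, the interferon median was -0.08 in estrus and 2.31 in diestrus, and the MHC median 1.56 and 0.72, beside 0.65 and 0.41 over all genes. Whether these lists differ between stages was not tested. Ifit3, an antiviral protein induced by interferon, had 4.11, 17.3, 13.9, 2.66 and 7.29 CPM in ctrl diestrus and 5.50, 6.22, 5.85, 5.85 and 5.71 CPM in FL1 diestrus, where libraries 2, 3 and 5 of ctrl were above all FL1 libraries and libraries 1 and 4 below (log2 variance ratio over both stages 2.17, limma adjusted p = 0.18). Psmb9, a subunit of the immunoproteasome, had a ratio of 3.44 (limma adjusted p = 0.173). Heat shock genes had a median of 1.05 (12 of 13), complement genes 0.92 (11 of 13), and collagen and matrix genes 0.62 (15 of 20). Without ctrl estrus library 5 these medians were 0.81, 0.93 and 0.29. Immediate early genes had a median of 0.57 (9 of 14), which was -0.72 in estrus and 1.02 in diestrus, and their summed level had the larger SD in FL1, 0.313 log2 units against 0.181 in ctrl. Jun, a transcription factor induced within minutes of a stimulus, lay between 119 and 370.1 CPM in ctrl and between 122 and 227 CPM in FL1 (ratio 3.13, limma adjusted p = 0.142). Over 16 genes of the circadian clock the median was 0.78, with 11 in the direction of ctrl, and 0.49 without ctrl estrus library 5.

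Signalling genes of ovarian hormones and growth factors had 24 of 28 members in the direction of ctrl, with a median of 0.91, and 20 of 28 with a median of 0.60 without ctrl estrus library 5. From the fertility genes that the study chose on these samples, 12 were examined as a list, of which 11 could be compared. Of these, 7 had the larger variance in ctrl, and limma called 0 (2 at an unadjusted p under 0.05, in the direction of ctrl), with a median of 1.44 with and 0.34 without ctrl estrus library 5. The supplement of the study names further fertility genes that this list does not hold, among them Agt and Morf4l1, which were both called. These were picked out because they were called. The share called among all genes of the supplement was not computed, and over all genes tested it was 0.229%. Lhcgr, the receptor for luteinizing hormone, had a ratio of 1.83, Igfbp2, which binds insulin-like growth factors, 2.54, and Cxcr4, a chemokine receptor, 2.02. Per2 of the clock had -0.11, Esr1, estrogen receptor alpha, 0.80, Rora, an orphan nuclear receptor, -0.71, Smad1, which carries BMP signals, -0.26, and Tex14, a protein of germ cell bridges, -1.24. Ratios that rest on ctrl estrus library 5 were those of Nos2, the inducible nitric oxide synthase (3.78 with and 0.34 without it), and Foxl2, the granulosa transcription factor (1.79 and -0.54). Kit, the receptor for stem cell factor, had 1.44 with and 0.60 without that library, beside a median of 0.23 for all genes without it.

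Genes that fell into separate levels within a group were counted by their largest step from one library to the next once the 5 libraries were sorted by log2 CPM. A gap of at least 4-fold was found in 48 genes in ctrl estrus (0.423% of all genes), 26 in ctrl diestrus (0.229%), 1 in FL1 estrus (0.00882%) and 2 in FL1 diestrus (0.0176%). In either stage this was 69 genes in ctrl (0.609% of all genes) and 3 in FL1 (0.0265%). In 33 of the 48 genes of ctrl estrus the gap set library 5 alone against the other 4, and without that library 40 genes had such a gap in ctrl. In ctrl diestrus the gap set a single library apart in 21 genes, library 5 in 9, library 1 in 6, library 3 in 4 and library 4 in 2. Of the genes with a gap in ctrl, 17 share their 3′ end with another gene (1.27% of the 1343 genes with a copy), and in FL1 0 of them do. Sdhd, a membrane anchor of succinate dehydrogenase, showed the gap of library 5, with 67.8, 33.4, 41.4, 55.5 and 1.77 CPM in ctrl estrus. Sdhd in FL1 lay between 9.70 and 62.1 CPM, and its log2 variance ratio was 1.74 with library 5 and -2.49 without it.

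Stage entered as a separate question. The contrast of the line difference in estrus against that in diestrus called 0 genes with limma, with 1173 genes at an unadjusted p under 0.05 and a smallest adjusted p of 0.125. The median log2 variance ratio was 0.65 in estrus and 0.41 in diestrus. On the first component of the within-group deviations, which held 19.9% of their variance, ctrl estrus library 5 was at -47.2 and the other libraries lay between -9.94 and 19.5.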

How the data were processed

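Ovarian RNA of 20 females was measured by QuantSeq 3′ mRNA sequencing, which reads the 3′ ends of transcripts. The authors trimmed the reads and mapped them with STAR to GRCm38, and the values used here are the deposited whole-number counts of uniquely assigned reads per Ensembl gene. The processing labels name Cuffdiff beside STAR. Which tool made the deposited counts, and with which strand setting, is not given in the sources used here. Counts were scaled with TMM factors (edgeR 4.0.16, R 4.3.3) and expressed as log2 CPM with a prior count of 2, over 11337 genes with 10 or more counts in every library. A gene near 0 in any library was therefore not compared. Deviations from the mean of each group of 5 were multiplied for the lost degree of freedom, and their absolute values were tested between the lines with limma 3.58.1 (Benjamini-Hochberg). The effect is the log2 ratio of variances with 8 degrees of freedom per line, with a jackknife SE over the 20 libraries. Distances were tested by exact permutation, two-sided, and level by edgeR's quasi-likelihood test with stage and line. DESeq2 1.42.0 served as an alternative for level and, with its variance stabilized counts, for spread. The alternatives for gaps and for sums of copies were chosen after seeing the data. Copies and positions were taken from GENCODE M21 transcripts (GRCm38). Named genes were the 12 called genes with the largest ratio in each direction (the 5 with the smallest p where fewer than 5 were called), the genes the study listed, up to 4 members of each list with the largest absolute ratio, the 5 genes of largest SD in each line and the 5 leading genes of each sign on the first component. Rpsa, Xist, Il11ra1, Nhsl2, Morf4l1, Agt and Mrap, and the copies Snrpg, Rpsa-ps10 and Gm10086, were chosen after their values were seen. The gene lists, and the comparison itself, were chosen with earlier results of these data known. P-values measure the spread between animals of 1 sampling. Scripts were tested on simulated data.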

Additional observations from a re-analysis of the deposited data

Results flagged for a closer look

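The distances, the called genes and the copies Snrpg and Rpsa-ps10 were examined in 116 groups of 5 libraries, and 11 groups held a library set apart. Its gap to the nearest of the others, divided by the range of the group, was above 0.71 (Dixon's 95% critical value). The other named genes were not examined in this way. For a group not chosen on its values, chance marks about 1 in 20. Most of these genes were called for a wide spread in ctrl, so neither that rate nor the fact that all 11 were groups of ctrl is a comparison of the lines.

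The distance of ctrl estrus library 5 to the centre of its group was 0.529 against 0.297 to 0.352 in the others (ratio 0.762). In ctrl estrus, Rpl34 was high in library 5 at 595 CPM against 10.3 to 46.2 (0.939), H2-K1 was high in library 5 at 368 CPM against 209 to 229 (0.872), Ubb was high in library 2 at 201 CPM against 21.7 to 48.7 (0.850), and Lamtor3 was high in library 1 at 10.1 CPM against 1.85 to 3.18 (0.839). In ctrl diestrus, Rpl26 was high in library 1 at 323 CPM against 15.7 to 22.03 (0.979), and Agt was high in the same library at 154 CPM against 42.0 to 71.9 (0.734). Eif4a1 was low in library 3 at 7.55 CPM against 59.1 to 67.2 (0.864), and AA465934 was low in the same library at 8.01 CPM against 56.1 to 65.5 (0.837). Morf4l1 was high in library 4 at 34.4 CPM against 2.62 to 8.76 (0.807), and Rabggta was marked in library 2 at 13.4 CPM against 12.4 to 12.6 (0.790).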

How the results depend on the processing

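The larger distance of ctrl, with both stages pooled, kept its direction and an exact permutation p of at most 0.05 in the 10 other settings tried for it (0.0450 to 0.0819) and without each of the 20 libraries (0.0356 to 0.0783). The number of called genes was less stable. With edgeR's filterByExpr it was 68 in the direction of ctrl and 8 in that of FL1, the distance in estrus was 0.101, 1 gene was called for line by stage, and 367 and 127 genes had a gap in ctrl and FL1. With at least 1 count in total it was 2926 and 2601, with 3276 for line by stage and 0.0578 for estrus. With 50 counts in every library it was 9 and 0. Thinned counts gave 0 in the direction of FL1 and 0.0778 for estrus. Deviations from the median gave 0 and 0, squared deviations 0 and 0, the F test 0 in the direction of FL1, protein-coding genes 15 and 0, estrus alone 3 and 0, and diestrus alone 1 and 0. An 8-fold gap left 14 and 0 genes, edgeR dispersions put 86.6% of genes higher in ctrl, and summing with copies left 8 of 13 calls. The cause of these changes was not tested. Leaving out 1 library gave 6 to 173 calls in ctrl, 0 to 9 in FL1, a distance in estrus of 0.0193 (without ctrl estrus library 5) to 0.104, 0 to 37 genes for line by stage, and gaps in 40 to 95 genes of ctrl and 2 to 6 of FL1. With the replicate number as a block (replicate block) 38 genes were called in the direction of ctrl. The median log2 variance ratio was 0.40 with the block and 0.58 without it. The titles number the libraries but do not say whether the numbers pair the animals. Over 30 same-numbered pairs the correlation of deviations ran from -0.12 to 0.27, and it was above 0.1 in 8. In 10 of the 30 pairs a library correlated best with its own number. This check cannot exclude a pairing. Depth limits the lowest genes, where counting error takes the largest share of the variance.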

Other observations

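Genes with a wide spread in FL1 differed in whether they were as wide in ctrl. Dct, a melanin enzyme, had the largest SD within groups of FL1, 1.13 log2 units, and 1.22 in ctrl (log2 variance ratio 0.22). For 1110032F04Rik the SD was 1.1 in FL1 and 0.560 in ctrl, and for Sstr1, a somatostatin receptor, 1.04 and 0.585. Gpnmb, a glycoprotein of macrophage lysosomes, lay between 7.29 and 17.5 CPM in ctrl and between 24.8 and 154 CPM in FL1 (log2 variance ratio -2.96, limma adjusted p = 0.125).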
